A study of Oncorhynchus mykiss with 8 samples.

Results

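The members described here are 47 array probes for the machinery of protein synthesis, followed in the liver of small and large rainbow trout. They were chosen by name: a probe was taken if its name in the study's liver or white muscle gene tables, or its platform symbol, held the words ribosomal protein, translation initiation factor, elongation factor, tRNA synthetase or tRNA ligase. This gave 47 of 43603 probes under 39 distinct names, and of the 1494 probes that carry any name or symbol none entered by its symbol. Of the members 18 are cytosolic ribosomal proteins (10 of the small and 8 of the large subunit), 10 are mitochondrial ribosomal proteins, 12 are initiation factors, 4 are elongation factors and 2 are tRNA synthetases. The last, negative elongation factor E, shares only the words, since it acts on RNA polymerase II and not on the ribosome, and it is given apart. Muscle tables alone named 38 of the members, and 9 stand in the liver tables, 3 of these also in the muscle tables.

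Ribosomes read messenger RNA in a small subunit and join amino acids in a large subunit, each built of ribosomal RNA and many ribosomal proteins. Initiation factors bring the small subunit, the message and the first tRNA together, elongation factors deliver the following aminoacyl-tRNAs and move the ribosome along, and tRNA synthetases load each tRNA with its amino acid. Mitochondria keep a separate set of ribosomes and factors for the few proteins coded in their own genome. Liver makes most plasma proteins and is a site of heavy protein synthesis, and growth makes use of this machinery in every tissue.

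All fish were Lyndon strain rainbow trout (Oncorhynchus mykiss), reproductively immature juveniles of both sexes and of the same age at sampling in both lots, fasted for 2 days before weighing. The labels give feeding ad libitum, while the study's methods give a ration set by body weight. The Sept. and Dec. lots are named after their time of hatching in the labels, while the study's methods give these months for the crosses. In each lot 1 male had been crossed with 5 females, with another male and later spawning females for Dec. fish. A lot gave 2 pools of large and 2 pools of small fish, each with liver mRNA of 5 fish, and each large pool was set against a small pool of its own lot on 2 two-color arrays that form a dye flip. The arrays whose small fish carried Alexa Fluor 647 are called 647 arrays, and those whose small fish carried Alexa Fluor 555 are called 555 arrays. Sire, dams, crossing and hatching time, sampling time and photoperiod differ together between the lots and cannot be told apart. Pooling hides the variation between single fish. In RNA of whole liver, fewer cells of a type and less RNA per cell cannot be told apart.

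Every value is read here as the log2 of the small fish signal divided by the large fish signal. Values above 0 then stand for a higher level in small fish. This direction rests on the means of a lot's 4 values, which matched 725 of 726 entries of the study's liver tables within 0.02 on the log2 scale, against 0 entries with the sign turned on the 555 arrays. The study's fold changes were taken from the same arrays, so this match shows only how the study read the values. It cannot tell whether the 555 arrays carried that direction when deposited. For a few liver genes, none of them a member, the study reports qPCR in Sept. fish that went the way of its array results. Both arrays of a dye flip hold the same pools, so they were averaged and a lot counts as 2 replicates. Probes carried values on 36754 to 41918 of the 43603 positions per array, and 45 of the members had a value on all 8 arrays. Ribosomal proteins S14 and S2 lacked a value on 1 Dec. array each and were not tested in that lot. Only ratios were analysed here, so no level and no signal over background is given, and the tissue was not checked by the level of its markers. Across all probes the 2 arrays of a dye flip correlated between -0.14 and 0.06. The means of the 2 pool pairs of a lot correlated at -0.0005 in Sept. and -0.083 in Dec. fish. The difference between the 2 arrays of a dye flip, taken up below, correlated between 0.22 and 0.48 from pool pair to pool pair. All of these describe probes that share arrays.

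Between small and large fish the ratios of most members lay close to 0 in both lots. In Sept. fish the median ratio of the 47 members was 0.06, with 30 above and 17 below 0, beside a median of 0.00 over the 38679 probes tested. In Dec. fish it was 0.02, with 24 above and 21 below 0, beside 0.01 over 34014 probes. At the thresholds of the study (a 1.2-fold change or more at an unadjusted p up to 0.05, here in limma over pool pairs) 5 members passed in Sept., where 2.72% of all probes did, and 3 members in Dec., where 4.84% did. All but 1 of these 8 stood in the study's liver table of that same lot, which lists probes for their ratio on these arrays, so their number says nothing further. Among the members not chosen in this way, 1 of 41 passed in Sept. and 0 of 42 in Dec. (limma at an unadjusted p of 0.05 or less, and also 0 by the methods' t-test over 4 arrays). These shares lie near or under the background. No probe of the array passed an adjusted p of 0.05 in limma, and the smallest adjusted p (Benjamini-Hochberg) was 1.00 in Sept. and 0.990 in Dec.

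**Figure D1:**
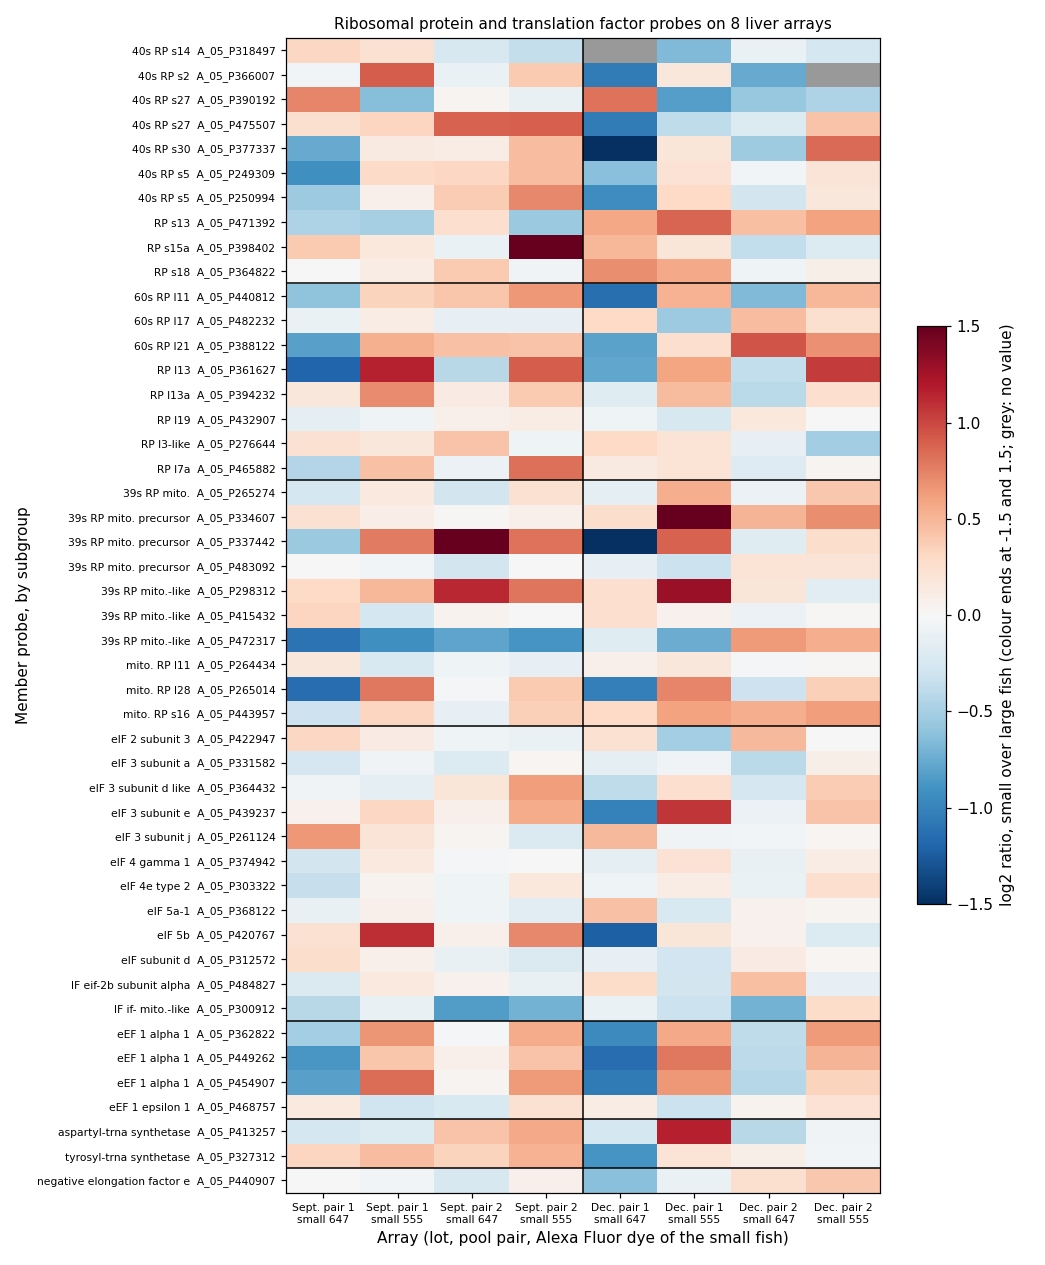
Log2 ratio (small over large fish) for each of the 47 members (rows, by subgroup) on each of the 8 arrays (columns, by lot, pool pair and dye of the small fish), red above and blue below 0, grey where a value is missing. Many rows change color between neighboring arrays of a dye flip, among them all 3 probes of elongation factor 1 alpha 1, while ribosomal protein S13 is red on all 4 Dec. arrays.

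The cytosolic small subunit had a median of 0.07 in Sept. and -0.13 in Dec. fish. Ribosomal protein S13 (probe A_05_P471392) is listed for small Dec. fish in the study's liver table, and its 4 Dec. values chose it. In Dec. pool pair 1 it read 0.58 on the 647 array and 0.87 on the 555 array, and in pool pair 2 it read 0.45 and 0.60 in the same order. All 4 Dec. arrays were thus above 0, with a mean of 0.63 (SE 0.15, n = 2 pool pairs, with 1 spread shared by both lots). The Sept. values, which did not choose it, were -0.46 and -0.50 in pool pair 1 and 0.25 and -0.55 in pool pair 2. No Sept. array reached the lowest Dec. array, and the Sept. mean of -0.32 (SE 0.15) did not pass the thresholds.

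Ribosomal protein S27, a zinc finger protein of the small subunit, is carried by 2 probes that did not run together. Probe A_05_P475507, listed for small Sept. fish, read 0.24 and 0.33 in Sept. pool pair 1 and 0.89 and 0.90 in pool pair 2, with a mean of 0.59 (SE 0.27). In Dec. fish it read -1.05, -0.38, -0.21 and 0.42, the lowest mean of the subgroup at -0.30 (SE 0.27). The second probe, A_05_P390192, was named through the muscle table and read 0.73, -0.63, 0.05 and -0.11 in Sept. fish, with a mean of 0.01 (SE 0.17). Its Dec. values were 0.81, -0.83, -0.57 and -0.46, with a mean of -0.26 (SE 0.17). The probes were on opposite sides of 0 on 4 of 8 arrays, and on the 647 array of Dec. pool pair 1 they lay 1.86 apart.

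Ribosomal protein S5, which lines the path of the messenger RNA, is also carried by 2 probes, and these were alike. Probe A_05_P249309 read -0.92, 0.28, 0.31 and 0.47 in Sept. and -0.63, 0.22, -0.04 and 0.19 in Dec. fish. Probe A_05_P250994 read -0.55, 0.08, 0.39 and 0.72 in Sept. and -0.93, 0.29, -0.28 and 0.17 in Dec. fish. They had the same sign on all 8 arrays, and their lot means stayed between -0.19 and 0.16 (SE 0.21 and 0.23), without a call in either lot.

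The highest small subunit ratio in Sept. fish was that of ribosomal protein S15a (A_05_P398402) at 0.62 (SE 0.25). It came from values of 0.39, 0.16, -0.10 and 2.00, so a single array of pool pair 2 lay far above the others, and the probe did not pass. The remaining members of the subunit, S2, S14, S18 and S30, had Sept. means between -0.02 and 0.29, and S18 and S30 had Dec. means of 0.32 and -0.29, with no call.

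In the cytosolic large subunit the median was 0.17 in Sept. and 0.04 in Dec. fish. Ribosomal protein L13a (A_05_P394232), known in mammals also as a repressor of translation of certain inflammatory messages, is listed for small Sept. fish. It read 0.17, 0.71, 0.13 and 0.39 in Sept. fish, all above 0, with a mean of 0.35 (SE 0.14). Dec. values of -0.19, 0.47, -0.41 and 0.25 gave 0.03 (SE 0.14). The lowest Sept. mean, -0.06 (SE 0.17), belonged to L17. In Dec. fish L21 was highest at 0.27 (SE 0.31) and L11, which in mammals also binds the p53 regulator Mdm2, was lowest at -0.20 (SE 0.20). L3-like, L7a, L13 and L19 had means between -0.04 and 0.19 over both lots, and no member of the large subunit passed in either lot.

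Mitochondrial ribosomal proteins had medians of 0.02 in Sept. and 0.06 in Dec. fish. They hold the members with the widest ratios, and 4 of the 10 stand in the liver tables. Most carry names that give the large (39S) subunit of the mitochondrial ribosome without the number of the protein, so probes of equal name cannot be taken as the same gene. Probe A_05_P472317 (39S mitochondrial-like), listed for large Sept. fish, read -1.11, -0.92, -0.79 and -0.89, a mean of -0.93 (SE 0.28). In Dec. fish it read -0.18, -0.74, 0.64 and 0.55, with the pool pairs on opposite sides of 0 and a mean of 0.07 (SE 0.28).

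Probe A_05_P298312, of the same name, ran the other way. It is listed for small Sept. fish, where it read 0.29, 0.50, 1.13 and 0.80 for a mean of 0.68 (SE 0.25). In Dec. fish it read 0.25, 1.29, 0.18 and -0.17, a mean of 0.39 (SE 0.25) that did not pass. The third probe of this name, A_05_P415432, stayed at 0.03 in Sept. and 0.06 in Dec. fish (SE 0.13).

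Among 3 probes named 39S mitochondrial precursor, A_05_P334607 is listed for small Dec. fish. Its Dec. values were 0.27, 1.59, 0.51 and 0.70, with a mean of 0.76 (SE 0.14). Its Sept. values of 0.23, 0.10, 0.02 and 0.08 lay below each of them and gave 0.11 (SE 0.14). Probe A_05_P337442 had the highest Sept. mean of the subgroup at 0.71 (SE 0.34) and the lowest Dec. mean at -0.25 (SE 0.34), but its arrays ran from -0.56 to 1.83 in Sept. and from -1.99 to 0.89 in Dec. fish, and it passed in neither. The third, A_05_P483092, stayed at -0.08 and -0.01 (SE 0.16).

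Mitochondrial ribosomal protein S16 (A_05_P443957), of the mitochondrial small subunit, is listed for small Dec. fish and read 0.30, 0.61, 0.55 and 0.63 there, a mean of 0.52 (SE 0.13). Its Sept. values of -0.31, 0.32, -0.12 and 0.35 changed sign with the dye flip in both pool pairs and gave 0.06 (SE 0.13). The other members, mitochondrial L11, mitochondrial L28 and a 39S probe (A_05_P265274), had means between -0.06 and 0.18 in both lots.

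**Figure D2:**
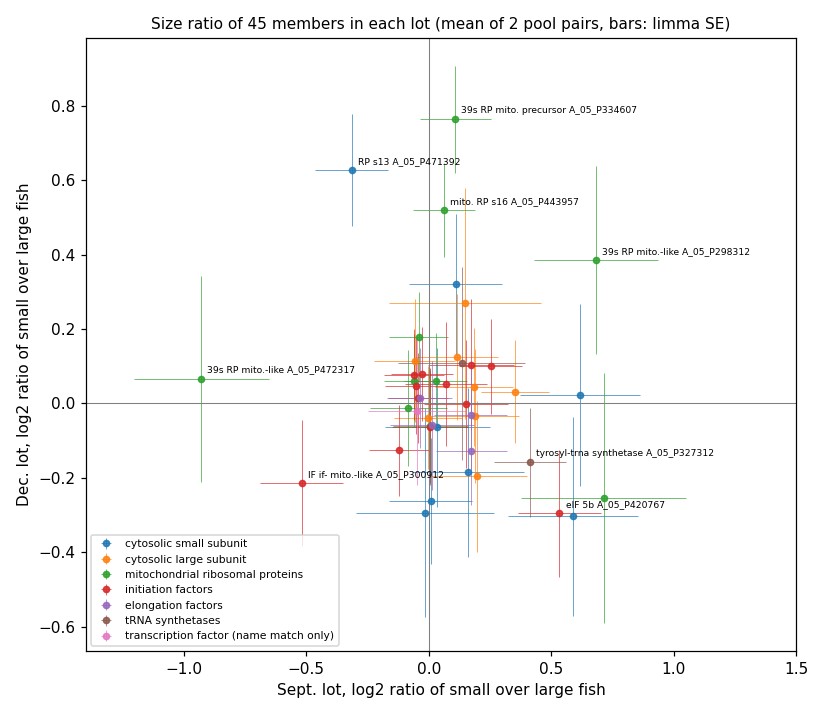
Mean log2 ratio (small over large fish) in the Sept. lot (horizontal) and the Dec. lot (vertical) for the 45 members tested in both. Points are colored by subgroup, and bars give the limma SE of a mean over 2 pool pairs, with 1 spread shared by both lots. Named points passed the thresholds in a lot; ribosomal protein S13 lies at -0.32 and 0.63, eIF5B at 0.53 and -0.30, and most members lie near 0 on both axes.

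The initiation factors had medians of -0.01 in Sept. and 0.03 in Dec. fish, and 10 of the 12 stayed between -0.13 and 0.25 in both lots. eIF5B (A_05_P420767), the GTPase that joins the ribosomal subunits at the end of initiation, was the only member to pass the Sept. thresholds without being listed for Sept. liver. The muscle tables, through which it was named, list it for small fish of both lots. It read 0.23 and 1.10 in Sept. pool pair 1 and 0.08 and 0.72 in pool pair 2, all above 0 and higher in each pair on the 555 array. The mean was 0.53 (SE 0.17), a 1.45-fold higher level in small fish. In Dec. fish it read -1.22, 0.19, 0.06 and -0.20, with a mean of -0.30 (SE 0.17) and the lowest value on a single array of pool pair 1. The Sept. call is lost without either Sept. pool pair, and on the 647 arrays alone, where the mean was 0.15. It is also lost with the methods' t-test, but that follows from the probe's absence from the Sept. liver table.

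The mitochondrial initiation factor (A_05_P300912, named IF mitochondrial-like) is listed for large Sept. fish and read -0.42, -0.11, -0.83 and -0.71 there, a mean of -0.52 (SE 0.17). Dec. values of -0.10, -0.32, -0.71 and 0.27 gave -0.21 (SE 0.17). Subunits of eIF3, the large complex that holds the small subunit ready for the message, had low ratios. Subunit A read -0.12 and -0.13 (SE 0.12) in Sept. and Dec. fish, subunit E 0.25 and 0.10 (SE 0.13), and subunit J was highest of the Dec. initiation factors at 0.10 (SE 0.18). eIF4 gamma 1, the scaffold of the cap-binding complex, read -0.04 and 0.02 (SE 0.12). eIF2 subunit 3 and the alpha subunit of its exchange factor eIF2B, which control how much initiator tRNA reaches the ribosome, had means between -0.03 and 0.08.

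The elongation factors had medians of 0.09 in Sept. and -0.05 in Dec. fish, with no call. Elongation factor 1 alpha 1, the GTPase that brings aminoacyl-tRNA to the ribosome, is carried by 3 probes, all named through the muscle table. Probe A_05_P362822 read -0.51, 0.66, -0.02 and 0.55 in Sept. and -0.95, 0.57, -0.38 and 0.64 in Dec. fish. Probe A_05_P449262 read -0.87, 0.42, 0.08 and 0.43, then -1.14, 0.79, -0.39 and 0.51. Probe A_05_P454907 read -0.81, 0.84, 0.04 and 0.64, then -1.06, 0.65, -0.43 and 0.33. The probes had the same sign on 7 of 8 arrays and were never more than 0.42 apart, and within each pool pair the 647 array was the lower. Averaging the dye flips left Sept. means of 0.17, 0.01 and 0.17 and Dec. means of -0.03, -0.06 and -0.13 (SE 0.15, 0.17 and 0.15). Elongation factor 1 epsilon 1 (A_05_P468757), in mammals a part of the multi-tRNA synthetase complex, read -0.04 and 0.01 (SE 0.13).

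**Figure D3:**
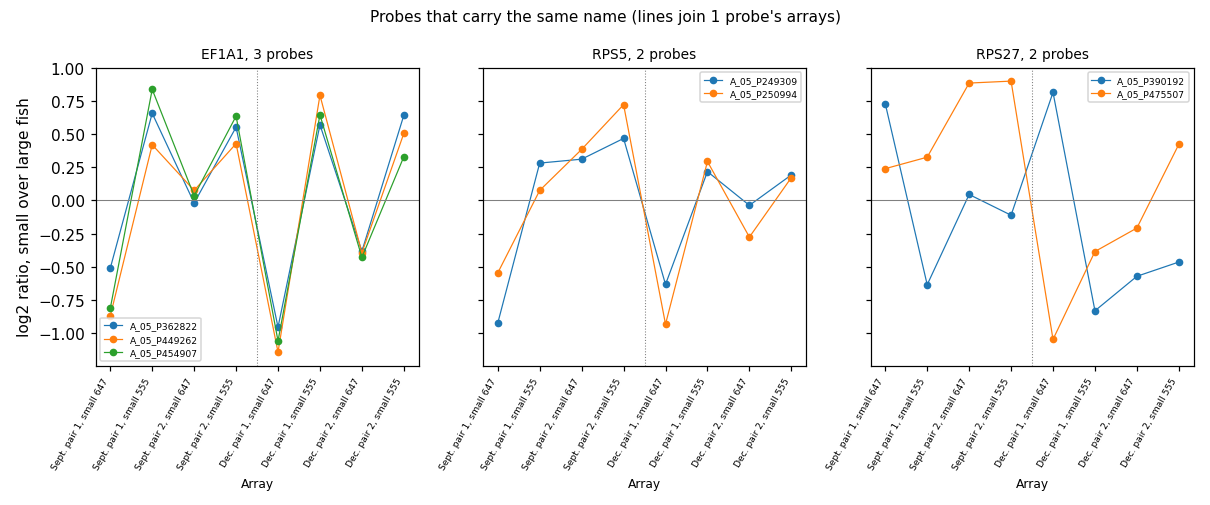
Log2 ratio (small over large fish) on each of the 8 arrays for the probes of elongation factor 1 alpha 1, ribosomal protein S5 and ribosomal protein S27, 1 line per probe and a dotted line between the lots. The first 2 names show probes that run together and rise and fall with the dye of the small fish, from -1.14 to 0.84 in elongation factor 1 alpha 1, while the S27 probes lie on opposite sides of 0 on 4 of 8 arrays.

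Tyrosyl-tRNA synthetase (A_05_P327312), which loads tyrosine on its tRNA, is listed for small Sept. fish. It read 0.33, 0.46, 0.33 and 0.52 in Sept. fish, the narrowest range of any listed member in its own lot, with a mean of 0.41 (SE 0.15). Its Dec. values were -0.88, 0.20, 0.09 and -0.04, each below every Sept. array, with a mean of -0.16 (SE 0.15) and no call. Aspartyl-tRNA synthetase (A_05_P413257) had means of 0.13 and 0.11 (SE 0.26). Negative elongation factor E (A_05_P440907) had means of -0.05 and -0.02 (SE 0.20).

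The lots were then set against each other. Over 45 members the median of the Sept. minus Dec. difference was 0.03, with 26 above and 19 below 0, beside -0.01 over 33291 probes. At the same thresholds 4 members passed, where 2.75% of all probes did. Of these, S13 differed by -0.94 (SE 0.21), the 39S precursor A_05_P334607 by -0.66 (SE 0.20) and tyrosyl-tRNA synthetase by 0.57 (SE 0.21), and each had been chosen through its ratio in 1 of the lots, so the difference is partly built in by the choice. eIF5B, named through the muscle tables and not chosen by the liver tables, differed by 0.83 (SE 0.24). It was 1 of 36 such members, and the smallest adjusted p in limma was 1.00 over all probes. The eIF5B call was lost without Sept. pool pair 1 (0.69), without Dec. pool pair 1 (0.60), on the 647 arrays alone (0.74) and with turned signs (-0.09). None of the 4 members passed without Sept. pool pair 1, on the 647 arrays alone or with turned signs. All Sept. arrays lay above all Dec. arrays for 1 of 45 members, tyrosyl-tRNA synthetase, beside 0.781% of all probes. They lay below for 3 of 45, S13, A_05_P334607 and A_05_P472317, beside 1.09% of all probes, and all 4 stand in the liver tables. Among the 36 members outside those tables the arrays of the lots overlapped in every case.

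Markers of blood had opposite ratios in the lots on the same arrays. Of 13 red blood cell probes, mainly globins, 5 are listed for Sept. and 8 for Dec. fish in the study's liver tables, which chose them for these ratios. Of the others, 2 of 8 passed below 0 in Sept., where 2.72% of all probes passed in either direction, and 2 of 5 passed above 0 in Dec., where 4.84% did. The median of all 13 ran from -0.58 to -0.09 over Sept. arrays and from 0.40 to 1.01 over Dec. arrays. Probes named with fibrinogen, apolipoprotein, complement, transferrin or albumin (24) served as liver plasma protein markers. These words can also match other proteins, such as electron-transferring-flavoprotein dehydrogenase. The 24 probes had a median of -0.06 in Sept. and -0.24 in Dec. Skeletal muscle markers (26 probes with values in Sept. and 25 in Dec.) had medians of -0.0018 and 0.021. They ran from -0.83 to 1.15 in Sept. and from -0.49 to 0.93 in Dec. Past the thresholds were 2 above and 1 below 0 in Sept., and 1 below 0 in Dec., with no split by the liver tables. The part of red blood cells in the difference of S13, eIF5B and the other members was not tested.

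The ratios of many members also moved with the dye orientation. For each pool pair the ratio on the 647 array minus that on the 555 array was divided by 2, which gives the orientation difference, and these were fitted in limma over 4 pool pairs. This comparison was added after the values had been seen. A ratio that depends on size alone would give 0. The median was -0.16 over 45 members, with 30 below 0, against 0.04 over the 33291 probes tested. At the same thresholds 12 members passed below 0, where 12.9% of all probes did, and 1 above 0, where 6.74% did. Other probes that carry a name or symbol passed below 0 in 24.7% of cases, so the members' share is near that of named probes in general. With an adjusted p under 0.05 there were 3 members of 45, all below 0, where 5.48% of all probes fell below 0 and 0.697% above. Among the other probes that carry a name or symbol 171 of 1356 did, in either direction. The members' share was thus not above that of named probes. The members' count was 0 without Sept. pool pair 1, without Dec. pool pair 1 or without Dec. pool pair 2, and 6 without Sept. pool pair 2. No share over all probes is given for these fits, so these counts cannot be set against a background. Over the members, orientation differences correlated between 0.12 and 0.70 from pool pair to pool pair. Their size means correlated between -0.32 and 0.39.

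Ribosomal protein L13 (A_05_P361627) had the lowest orientation difference, -0.81 (SE 0.11, limma adjusted p = 0.0231, below 0 in 4 of 4 pool pairs). It read -1.18 and 1.16 in Sept. pool pair 1, -0.42 and 0.90 in pool pair 2, -0.78 and 0.59 in Dec. pool pair 1 and -0.37 and 1.05 in pool pair 2. Every 647 array was below 0 and every 555 array above, and the means by lot were 0.11 and 0.12 (SE 0.17). The other members with an adjusted p under 0.05 were 2 of the 3 probes of elongation factor 1 alpha 1, with -0.59 (SE 0.12, limma adjusted p = 0.0383) for A_05_P454907 and -0.54 (SE 0.10, limma adjusted p = 0.0312) for A_05_P362822. The third, A_05_P449262, had -0.56 (SE 0.13) and a limma adjusted p of 0.0538.

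Mitochondrial L28 (A_05_P265014), S30 (A_05_P377337) and L11 (A_05_P440812) had orientation differences of -0.60, -0.56 and -0.50 and missed the adjusted threshold. L28 read -1.14 and 0.80 in Sept. pool pair 1 and -1.02 and 0.73 in Dec. pool pair 1, while its lot means were 0.01 and -0.06. S30, which is made as a fusion with a ubiquitin-like protein, read -1.68 and 0.18 in Dec. pool pair 1 and -0.53 and 0.86 in pool pair 2. The S27 probe A_05_P390192 was the only member past the thresholds above 0, at 0.38 (SE 0.16).

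By subgroup the orientation difference had a median of -0.55 in elongation factors, -0.26 in the cytosolic large subunit and -0.19 in the small subunit. It was -0.13 in both mitochondrial ribosomal proteins and initiation factors. Of the 4 elongation factor probes 3 are elongation factor 1 alpha 1, at -0.54 to -0.59, and elongation factor 1 epsilon 1 was at 0.03. The orientation difference was below 0 in all 4 pool pairs for 19 of 45 members, against 16.9% of all probes. It was above 0 in all 4 for 3 of 45, against 18.1%. For 12 of 45 members every 647 array lay below every 555 array, against 8.85% of all probes, and for 0 members above, against 7.93%. These patterns were not counted over the other named probes. What sets these values apart by dye was not tested.

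**Figure D4:**
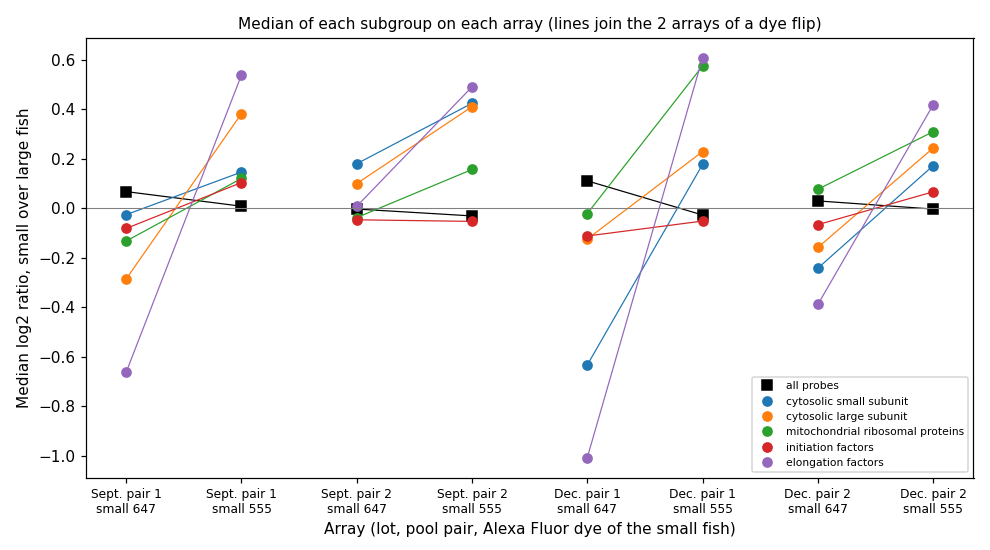
Median log2 ratio (small over large fish) on each array for all probes (black squares) and 5 subgroups (circles), with lines joining the 2 arrays of a dye flip. All-probe medians stay between -0.03 and 0.11, while elongation factors run from -1.01 to 0.61 and are higher on the 555 array in each of the 4 pool pairs. Of the 4 elongation factor probes 3 are elongation factor 1 alpha 1.

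With the sign turned on the 555 arrays, a reading that matched no entry of the study's tables, the orientation difference takes the place of the size ratio. Then 4 members passed in Sept., all below 0, where 9.47% of all probes did, and 12 in Dec., 11 of them below 0, where 20.0% did, and none of the members that passed as deposited was among them. L13 would read -0.92 in Sept. and -0.70 in Dec. fish. Statements on the size of a member's ratio therefore rest on the direction given above.

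**Figure D5:**
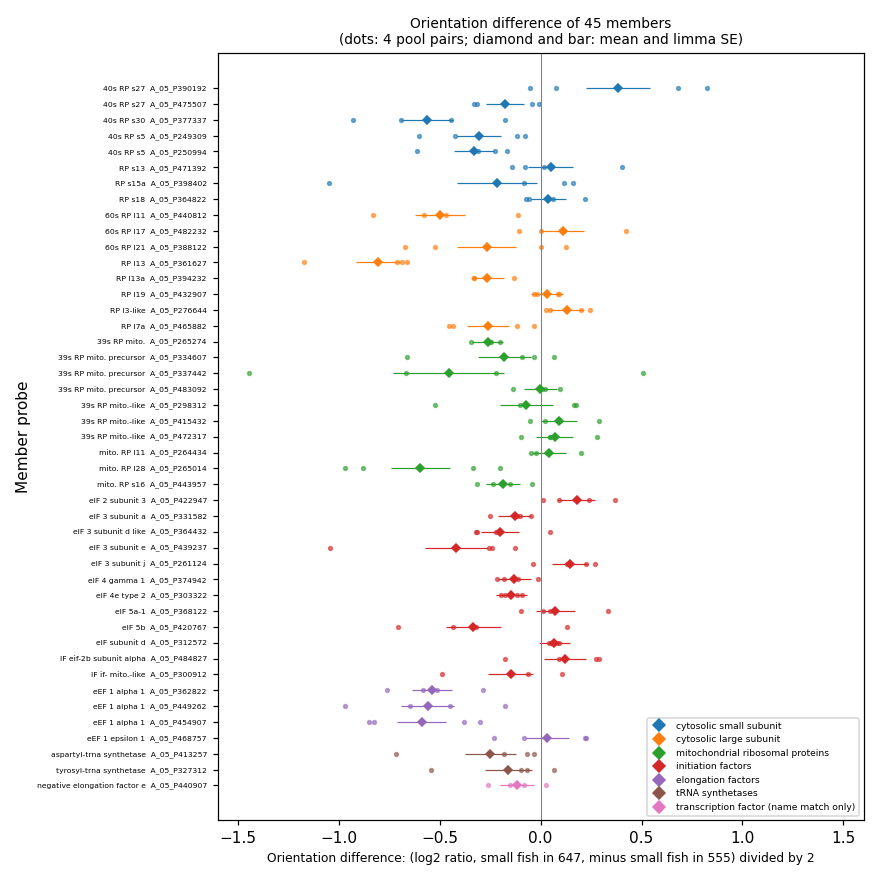
Orientation difference (log2 ratio on the 647 array minus that on the 555 array, divided by 2) of the 45 members with values on all 8 arrays, with dots for the 4 pool pairs and a diamond and bar for the mean and limma SE. Ribosomal protein L13 is lowest at -0.81 and an S27 probe is highest at 0.38.

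The rule left out 25 probes of related functions, for ribosome assembly, ribosomal RNA, tRNA handling, poly(A)-binding and methionine removal, among them a probe with the symbol rps7. Of 18 tested in Sept. that the Sept. liver table had not chosen, 0 passed above and 1 below 0, where 2.72% of all probes passed. Of 22 in Dec. 0 passed in limma at an unadjusted p of 0.05 or less, where 4.84% of all probes did. Both shares over all probes still include probes of the liver tables, so a low count among these probes is partly built in. The 1 that passed in Sept. was an rRNA promoter binding protein (A_05_P425972) at -1.04 (SE 0.35), which had an orientation difference of 1.42. Its Dec. mean of 0.71 (SE 0.35) came from 1.42 in pool pair 1 and -0.0089 in pool pair 2. Another probe that carries this name, A_05_P393707, is also named senescence-associated protein in the study. It is listed for large Sept. fish at -0.77 (SE 0.46). In Dec. fish it read 1.63 in pool pair 1 and -0.28 in pool pair 2. Nucleolin (A_05_P265374), a nucleolar protein of ribosomal RNA synthesis, is listed for small Dec. fish at 0.60 (SE 0.14) and read 0.10 in Sept. fish.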

How the data were processed

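Liver mRNA pools of small and large fish of the Sept. and Dec. lots were compared on 8 two-color Agilent salmonid arrays, whose probes were designed from Atlantic salmon sequences. The authors read the spots with GenePix Pro, excluded those they rejected by eye or whose channels had too low a signal ratio, and applied lowess normalization in GeneSpring, first per array and then between arrays. The values they deposited are log2 ratios, used here as they are, without centring. Control spots (60) were left out. Names came from the study's tables, given there by protein similarity, and these tables list only probes the study called, in liver of these fish or in their white muscle.

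The dye flips were averaged and the 4 pool pairs fitted in limma 3.58.1 (R 4.3.3; lmFit and eBayes) over all probes, with 1 mean per lot and a shared spread. A lot was tested on probes with values on its 4 arrays, the difference on probes with all 8. The 2 pool pairs of a lot hold different fish of the same families, so p-values measure the spread between these pools, and their number limits the precision. In each lot the study set the largest fish of the families against the second smallest, and the second largest against the smallest. The spread between pool pairs therefore also holds this difference in rank. Members, lists and subgroups were chosen with earlier results of these data known. The text names members past the thresholds, those in the liver tables, probes that share a name, the highest and lowest of each subgroup, and members singled out after their values were seen. Alternatives were the methods' t-test, single arrays with a dye term, centring, a single dye orientation, turned signs, other filters and folds, robust estimation and leaving out each pool pair. The code was tested on simulated data. The study's fold changes were used only to find the direction in which the study read the ratios.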

Additional observations from a re-analysis of the deposited data

Results flagged for a closer look

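A test for an outlying array flagged 1 array against the other 3 of its lot in 6 of 92 groups of 4 arrays, where chance flags about 1 in 20. The size of the gap alone did not set a flag, since S15a (A_05_P398402) at 2.00, next to 0.39, was not flagged. In Sept. fish the 647 array of pool pair 1 (small fish in Alexa Fluor 647) was low for ribosomal protein S5 (A_05_P249309) at -0.92, next to 0.28, and for L21 (A_05_P388122) at -0.81, next to 0.43. The 647 array of Sept. pool pair 2 was high for S13 (A_05_P471392) at 0.25, next to -0.46, and low for a 39S mitochondrial precursor (A_05_P483092) at -0.28, next to -0.04. The 555 array of Sept. pool pair 1 was high for L17 (A_05_P482232) at 0.11, next to -0.10. In Dec. fish eIF3 subunit J (A_05_P261124) read 0.48 on the 647 array of pool pair 1, next to 0.03.

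The size ratio differed between the lots past an unadjusted p of 0.05 in limma for 4 of 45 members, where 2.75% of all probes did. The lowest adjusted p in limma was 1.00. Sept. minus Dec. was 0.83 for eIF5B (A_05_P420767), 0.57 for tyrosyl-tRNA synthetase (A_05_P327312), -0.66 for a 39S mitochondrial precursor (A_05_P334607) and -0.94 for S13. The last 3 were named through the liver table of 1 lot.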

How the results depend on the processing

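The members past the thresholds numbered 5 in Sept., 3 in Dec. and 4 for the difference, and those that no liver table of the lot had chosen numbered 1, 0 and 1. Counts follow in the order of Sept. members, Sept. members not chosen and all Sept. probes (1054 as reported), with the share of all probes tested in brackets. The methods' t-test over 4 arrays gave 0 members not chosen and 648 probes (1.68%). The t-test over 2 pool pairs gave 1, 0 and 442 (1.14%). The 555 arrays alone gave 12, 9 and 2109 (5.23%), and a fold of at least 1.5 gave 2, 0 and 569 (1.47%). Centred arrays gave 3 Sept. members, where 2.71% of all probes passed. The filter on at least 1 array of every pool pair also gave 3, where 2.88% did. Probes with values on all 8 arrays gave 2 members not chosen, where 2.27% did. Each lot alone gave 1611 probes (4.17%) and 647 arrays alone 1853 (4.59%). Turned signs gave 4 members not chosen and 3664 probes (9.47%) in Sept., and 12, 12 and 6809 (20.0%) in Dec. fish. For the difference they gave 0 and 0 members, where 3.86% of all probes passed. In Dec. (1647 probes as reported) the t-test over 4 arrays called 709 probes (2.08%), and the t-test over 2 pool pairs 0 members and 499 probes (1.47%). The 647 arrays alone gave 4 members not chosen and 4370 probes (12.1%), and 555 arrays alone 10, 7 and 3363 (9.52%). A fold of at least 1.5 gave 684 probes (2.01%). The filter on at least 1 array gave 1 member not chosen, where 4.98% of all probes passed. For the difference it gave 2 not chosen, where 3% did. For the difference, a fit of the 8 single arrays with a dye term and a random block for pool pairs gave 7 members. In that fit 3.61% of all probes passed, against 2.75% as reported. Pool pairs of the 2 lots hold different fish, though the study formed them by size rank in each lot. The sample titles give only pair numbers, and deviations of same-numbered pairs correlated at 0.03. That correlation cannot show whether the numbers share a structure. The replicate block on these numbers gave 7 members for the difference and 2 not chosen, where 3.86% of all probes passed. The cause of these changes was not tested.

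Without single pool pairs the counts ran from 0 to 7 Sept. members (0 without Sept. pool pair 2), 3 to 5 Dec. members and 2 to 6 for the difference, of which 0 of the 4 as reported remained without Sept. pool pair 1 and 1 without Dec. pool pair 1. Members not chosen ran from 0 to 2, 0 to 3 and 0 to 2, and all probes from 1584 to 2091, 1182 to 4374 and 611 to 3088 (917 as reported). These fits take the spread of the remaining single pair from the other lot. The 13 members past the thresholds by orientation became 8 to 16. The 3 with an adjusted p under 0.05 in limma became 0 without Sept. pool pair 1 or either Dec. pool pair and 6 without Sept. pool pair 2. For these orientation fits no share over all probes is given, so the changes cannot be told from a change over the whole array.

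The median of cytosolic ribosomal proteins was 0.13 in Sept. and -0.0056 in Dec. It was -0.077 in Sept. with 647 arrays alone, 0.39 and 0.21 with 555 arrays alone, -0.22 and -0.16 with turned signs, and ran from 0.0038 to 0.25 and from -0.12 to 0.0097 without single pool pairs. For mitochondrial ribosomal proteins (0.02 and 0.06) it was -0.042 in Sept. with 647 arrays alone, 0.14 and 0.51 with 555 arrays alone, -0.041 and -0.13 with turned signs, -0.017 and 0.024 over members named only in muscle tables, and -0.017 and 0.17 with probes of a name averaged, and ran from -0.0077 to 0.039 and from 0.064 to 0.14 without single pool pairs. For initiation factors (-0.01 and 0.03) it was -0.11 in Dec. with 647 arrays alone, 0.016 in Sept. with 555 arrays alone, -0.10 and -0.14 with turned signs, and ran from -0.053 to -0.012 and from -0.036 to 0.057 without single pool pairs. Turned signs reversed 5 of the members past the thresholds, which then read -0.081 for tyrosyl-tRNA synthetase and -0.38 for eIF5B in Sept., and -0.38 for the 39S precursor A_05_P334607, -0.10 for mitochondrial S16 and -0.11 for S13 in Dec.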
